A study of Mus musculus with 4 samples.

Results

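The genes of the unfolded protein response and of the amino acid stress response were examined in mouse neural stem cells, 39 in number. They were taken from a given list, and every probe set that the platform annotation assigned to exactly 1 of them was used. All 39 listed genes were measured, by 80 of the 22626 probe sets that are not array controls, and 2 further probe sets that Phgdh shares with another annotated gene were left out. Olig1 knockout (KO) cells were measured on 3 arrays and wild-type (WT) cells on 1 array. Both kinds of cell came from the ganglionic eminences, the ventral swellings of the embryonic forebrain, at embryonic day 14.5, on a C57/Bl6 background, and both were cultured without serum in neural stem cell medium with EGF. Olig1 is a transcription factor gene known for its part in oligodendrocyte development. The labels give neither the design of the Olig1 allele nor a separate embryo or culture for each KO array. The p-values below therefore measure only the spread between these arrays, which may be technical.

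Secreted and membrane proteins fold in the endoplasmic reticulum (ER). When unfolded protein accumulates there, the sensors encoded by Ern1, Eif2ak3 and Atf6 start the unfolded protein response, which raises chaperones, disulfide isomerases and the machinery of ER-associated degradation. The Eif2ak3 kinase also phosphorylates the initiation factor eIF2, as do kinases that sense amino acid shortage, and this slows protein synthesis while translation of Atf4 increases. The Atf4 protein and its C/EBP partners then act on genes of amino acid uptake, serine and asparagine synthesis and glutathione turnover. Neural stem cells in culture need amino acid uptake and synthesis for growth, and transcripts of this branch are normally present in growing cells.

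Promoter sequence gives the usual link between these genes and their factors. The windows shown here are those of Hspa5 and Hsp90b1, which encode the main ER chaperones, and of Asns and Chac1, which stand for the amino acid branch. Each holds the 250 bases before and the first 50 bases from the annotated start (RefSeq, build GRCm38.p6), is written 5′ to 3′ on the strand of the gene, and has motif matches in capitals. The Hspa5 window is chr2:34771840-34772139 on the plus strand, that of Hsp90b1 is chr10:86705395-86705694 on the minus strand, that of Asns is chr6:7693160-7693459 on the minus strand and that of Chac1 is chr2:119350992-119351291 on the plus strand.
Hspa5: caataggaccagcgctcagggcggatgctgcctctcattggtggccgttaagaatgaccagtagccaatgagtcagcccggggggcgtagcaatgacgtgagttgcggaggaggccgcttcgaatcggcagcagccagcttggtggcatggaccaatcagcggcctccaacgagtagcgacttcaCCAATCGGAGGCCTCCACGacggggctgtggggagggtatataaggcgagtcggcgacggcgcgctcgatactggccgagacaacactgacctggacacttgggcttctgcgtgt
Hsp90b1: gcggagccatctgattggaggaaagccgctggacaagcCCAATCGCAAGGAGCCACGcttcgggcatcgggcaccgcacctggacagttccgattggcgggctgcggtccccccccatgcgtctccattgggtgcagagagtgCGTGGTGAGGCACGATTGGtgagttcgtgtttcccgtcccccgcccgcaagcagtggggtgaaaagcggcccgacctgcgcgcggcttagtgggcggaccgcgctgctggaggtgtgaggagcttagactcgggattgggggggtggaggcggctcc
Asns: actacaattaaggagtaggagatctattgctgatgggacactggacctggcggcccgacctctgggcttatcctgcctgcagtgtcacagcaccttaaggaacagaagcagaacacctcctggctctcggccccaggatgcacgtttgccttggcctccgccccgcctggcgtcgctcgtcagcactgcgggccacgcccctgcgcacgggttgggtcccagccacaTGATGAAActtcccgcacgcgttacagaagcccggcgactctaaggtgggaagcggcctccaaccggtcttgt
Chac1: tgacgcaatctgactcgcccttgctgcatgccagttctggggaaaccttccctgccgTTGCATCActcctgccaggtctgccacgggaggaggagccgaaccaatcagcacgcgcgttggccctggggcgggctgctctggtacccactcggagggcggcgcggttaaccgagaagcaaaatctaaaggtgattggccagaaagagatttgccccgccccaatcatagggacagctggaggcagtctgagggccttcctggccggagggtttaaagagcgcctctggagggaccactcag

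The ER stress response element (ERSE), CCAAT followed by any 9 bases and CCACG, is the site through which cleaved Atf6, with the factor NF-Y, acts on chaperone genes. It was searched on both strands in the 41 windows of the 37 members that the RefSeq promoter table holds, all but Atf6 and Slc7a5. It occurred in 8 of these 37 genes (21.6%), against 37 of all 27025 genes in the table (0.137%). The matches are shown because most of these genes are among the ER chaperone and co-chaperone genes described below. Each match is written in the direction of the motif, with the fixed bases in capitals.
Calr: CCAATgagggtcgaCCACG
Canx: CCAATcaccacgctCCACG
Creld2: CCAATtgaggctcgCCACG
Dnajc3: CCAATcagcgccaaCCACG
Hsp90b1: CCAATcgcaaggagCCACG
Hsp90b1: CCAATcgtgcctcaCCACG
Hspa5: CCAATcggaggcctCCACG
Pdia6: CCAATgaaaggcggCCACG
Syvn1: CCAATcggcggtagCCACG

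The capitals show the same CCAAT and CCACG ends in every member, while the 9 bases between them differ. Hsp90b1 held a match on each strand. The C/EBP-ATF response element, TGATGNAA, occurred in 7 of 37 members (18.9%) and in 1219 of 27025 genes (4.51%). It read TGATGAAA in Asns, at positions -23 to -16 counted from 0 at the annotated start base, and TGATGCAA in Chac1, Herpud1, Nupr1, Vldlr and, on both strands, in Slc7a11. In Trib3 it read TGATGTAA. The related ERSE-II, ATTGG, any base, then CCACG, occurred in Herpud1 alone among members (2.7%) and in 12 genes of the table (0.0444%). The core of another element, TGACGTGG, was in no member window and in 193 genes (0.714%). No match of one motif overlapped one of another. Members are known as targets of these factors partly through such elements, so these shares describe the list and are no independent support for it, and a missing match says only that the letters are absent from this window.

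**Figure D1:**
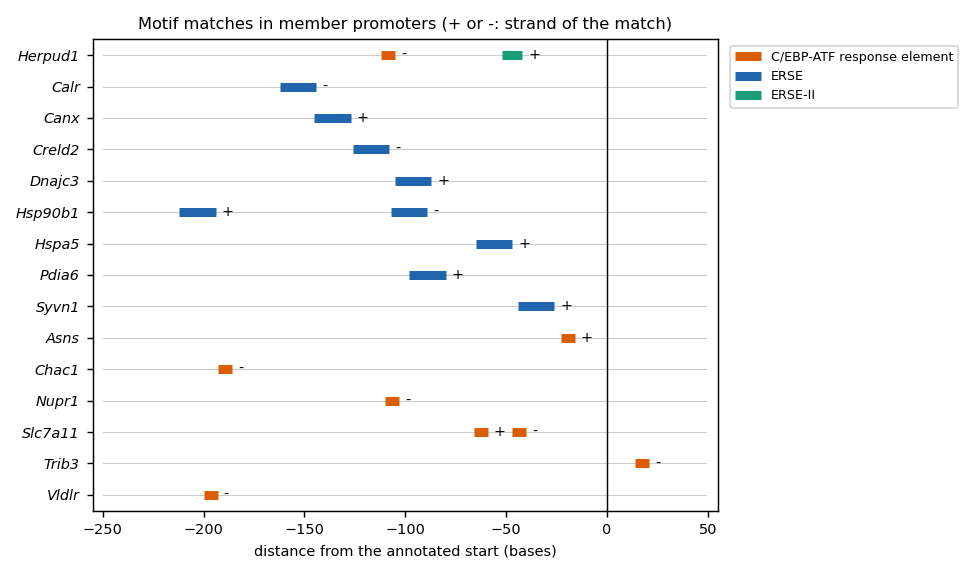
Positions of motif matches in the promoter windows of the 15 members that hold any; the x axis is the distance in bases from the annotated start, each row is a gene, colour gives the motif and the + or - beside each match its strand. ERSE matches of 8 genes lie between -212 and -26, and the C/EBP-ATF match of Trib3 lies after the start.

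The arrays were first compared with their labels. Olig1 gave a MAS5 signal, the array software's brightness estimate on a linear scale, of 3839.6, 4438 and 8548 over KO replicates 1, 2 and 3 beside 7618 in the WT array. The Olig1 signal of KO replicate 3 was above that of the WT array, and since neither the missing part of the gene nor the place of the probe set was known, this does not check the genotype. All 10 neural stem cell markers measured, among them Sox2 and Nes, were above background in all 4 arrays, where background is the highest of 27 bacterial control probe sets with no target: 21.3, 39.99 and 87.8 in KO replicates 1, 2 and 3, against 30.5 in the WT array. Markers of endothelium (0 of 5), of microglia and blood (1 of 5) and of mesenchyme (1 of 5) were mostly not above it in all 4. Other neural markers were present in part, with 4 of 5 for astrocytes, 3 of 5 for oligodendrocytes and 3 of 6 for neurons above background in all 4 arrays. The oligodendrocyte markers summed to 2137, 2504 and 3848 in KO replicates 1, 2 and 3 against 2243 in the WT array, those of neurons to 1677, 1081 and 1046 against 2090 in the WT array, and those of astrocytes to 3731, 2396 and 3430 against 4783 in the WT array. Single bright genes carried some of these sums. In the WT array Map2 gave 1766 of the neuron sum and Cnp 1944 of the oligodendrocyte sum. Of the 6 neuron markers, 2 (Tubb3 and Syt1) were above the WT array in every KO array, 1 (Map2) was below and 3 were neither. Of the 5 oligodendrocyte markers, 2 (Mag and Sox10) were above it in every KO array, 0 below and 3 neither. Syt1 was at background in KO replicate 3 and Mag in the WT array. The part of these marker levels in the results below was not tested. The arrays formed pairs that cut across genotype. A fit with the pairs as a block is given at the end, but it compares only KO replicate 1 with the WT array. The part of these pairs in the results below was not tested otherwise. Xist gave 8472, 161 and 46.5 over KO replicates 1, 2 and 3 beside 9480.5 in the WT array, and the 3 probe sets for 18S ribosomal RNA had medians of 7.24, 946 and 2823 in KO replicates 1, 2 and 3, against 4.64 in the WT array. For beta-actin, the signal of the 3' probe set over that of the 5' one, which grows as RNA is shortened, was 1.25, 1.30 and 1.82 over KO replicates 1, 2 and 3 beside 1.11 in the WT array. The same ratio for Gapdh was 0.794, 1.03 and 0.842 in KO replicates 1, 2 and 3, against 0.759 in the WT array, so KO replicate 3 was the highest by beta-actin and KO replicate 2 by Gapdh. The Y chromosome gene Eif2s3y ran the other way from Xist, with 1.53, 654 and 1160 in KO replicates 1, 2 and 3, against 0.608 in the WT array. By Xist, Eif2s3y and 18S, KO replicate 1 and the WT array make 1 pair and KO replicates 2 and 3 the other. The sample titles divide them likewise, since only those of KO replicates 2 and 3 carry a number, 37 and 38. Within a pair the genotypes can be compared only between 2 single arrays. Eif2s3y was under background in KO replicate 1 and the WT array and far above it in KO replicates 2 and 3. By Xist and Eif2s3y the pairs thus differ in sex, with female cells in the WT pair and male cells in the other. The part of sex in the results below was not tested. In bulk RNA such as this, fewer cells of a type and less RNA per cell cannot be told apart.

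No member passed the test of KO against WT cells. Signals were compared as log2(signal + 14.4) with limma over all 22626 probe sets, and the 3 KO arrays supplied the spread. Of the 80 member probe sets, 0 passed an adjusted p of 0.05 in either direction, as did 0% of all probe sets higher and 0% lower in KO. At an unadjusted p under 0.05 there were 0 member probe sets, against 2.75% of all probe sets. The lowest unadjusted p of a member was 0.0807, and the adjusted p was 0.9997 for each of the 80, so every difference given below is one that did not pass. In 20 member probe sets (25.0%) every KO array was above the WT array, beside 25.1% of all probe sets, and in 11 (13.8%) every KO array was below it, beside 20.5% of all. In 0 of the 80 did every KO array lie at least 1 log2 unit from the WT array, against 1.44% of all probe sets. The log2 range over the KO arrays was wider than the difference of their mean from the WT array in 69 of 80. The same count was not made over all probe sets, so it cannot be called particular to the members. Counting only KO replicates 2 and 3, 24 member probe sets were above the WT array in both and 31 were below it (38.8%), beside 39.1% and 31.0% of all probe sets.

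Seen array by array, KO replicate 1 stood on the other side of the WT array from KO replicates 2 and 3 in the median of the members. In KO replicate 1, 55 of 80 member probe sets were above the WT array, beside 49.9% of all probe sets, with a median log2 difference of 0.18 where that of all probe sets was -0.0010. In KO replicate 2, 35 of 80 were above it, beside 54.6% of all, with a median of -0.12 against 0.061 for all. In KO replicate 3, 38 of 80 were above it, beside 53.5% of all, with a median of -0.077 against 0.057 for all. Most members are bright, with 65 of the 80 above the lowest 40% of probe sets by mean. The medians of these 65 were 0.21, -0.17 and -0.097 in KO replicates 1, 2 and 3. Those of all probe sets above that level were 0.010, 0.0032 and -0.034. In KO replicate 3, 44.6% of the 65 were above the WT array, beside 47.7% of all above that level, so the gap there was smaller. By the brightest probe set of each gene, KO replicate 1 held the highest of the KO signals for 22 of 39 members (56.4%), beside 30.4% of all 12393 genes. For the mean of the KO arrays, the median log2 difference over the members was -0.044, beside 0.032 over all probe sets. Above the lowest 40% it was -0.050 over the members, beside -0.011 over all probe sets.

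**Figure D2:**
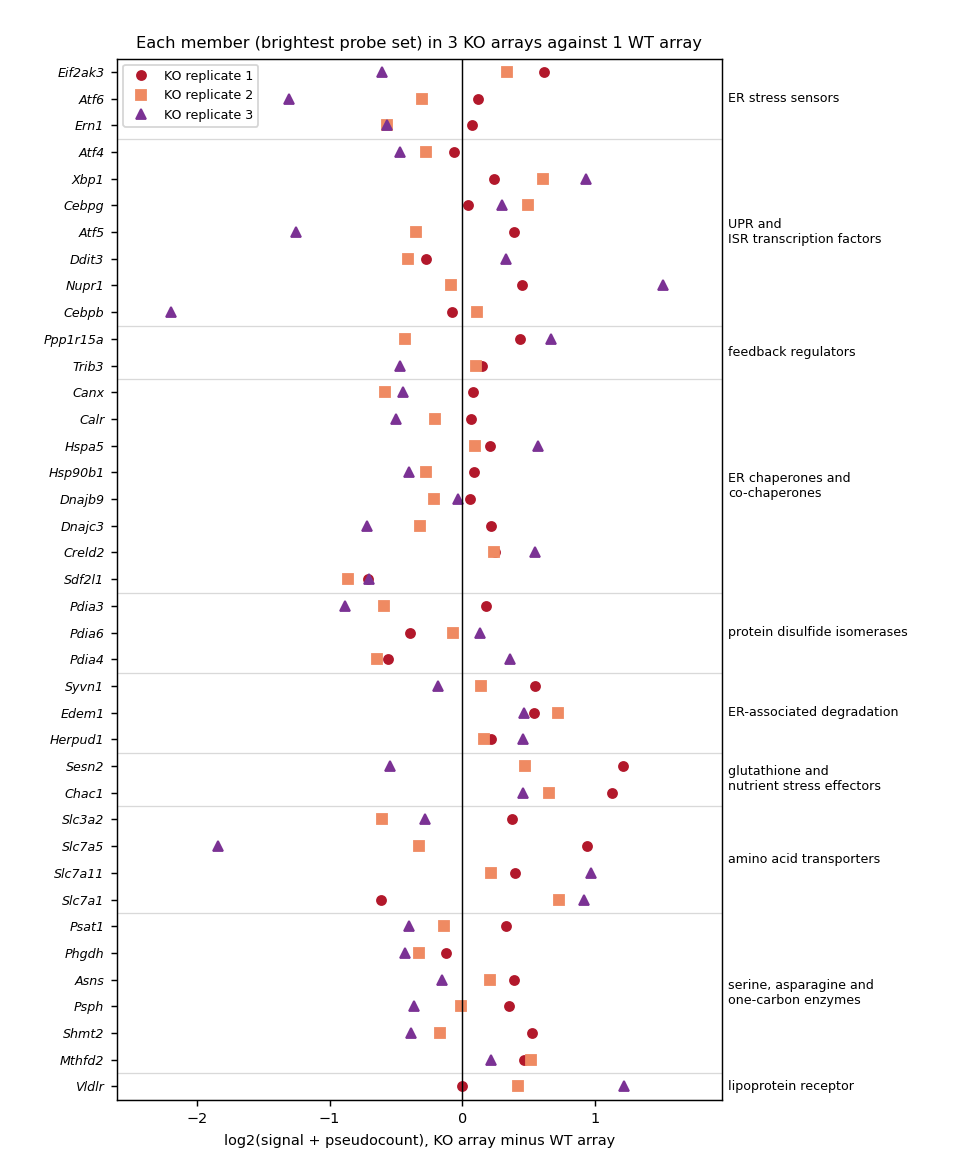
Log2 difference of each KO array from the WT array for the brightest probe set of each of the 39 members, grouped by role; points are single arrays, values are on the log2(signal + pseudocount) scale and the vertical line marks no difference. Serine, asparagine and one-carbon genes lie right of the line in KO replicate 1 in 5 of 6 cases. In all 3 arrays 9 of the 39 members lie right of it, beside 25.2% of all 12393 genes by their brightest probe set. These 9 are Xbp1, Cebpg, Hspa5, Creld2, Edem1, Herpud1, Chac1, Slc7a11 and Mthfd2. In all 3 arrays 3 of the 39 members, Atf4, Phgdh and Sdf2l1, lie left of the line, beside 18.6% of all genes.

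Among the sensors, the members had no common direction. Eif2ak3, whose product is the ER-bound eIF2 kinase, gave 463, 379 and 191 over KO replicates 1, 2 and 3 beside 297 in the WT array. The KO arrays lay on both sides of the WT array, and the log2 difference of their mean was 0.12 (SE 0.57). The other Eif2ak3 probe sets were at background in the WT array and in at least 2 of the KO arrays. Atf6, the membrane-bound factor that is cleaved in the Golgi when ER folding is overloaded, gave 368, 271 and 128 in KO replicates 1, 2 and 3, against 338 in the WT array. Only KO replicate 1 was above the WT array there, and KO replicate 3 was the lowest. Ern1, the sensor whose ribonuclease splices Xbp1 mRNA, gave 72.1, 41.3 and 41.2 over KO replicates 1, 2 and 3 beside 68.1 in the WT array, and KO replicate 3 was at background. A second Ern1 probe set, also at background in KO replicate 3, differed by 0.55, and the remaining one was at background in all 4 arrays. The direction of Ern1 is therefore not settled.

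Xbp1 stood on the higher side of the WT array in every KO array with all of its 4 probe sets. It encodes the transcription factor whose mRNA the Ern1 product splices, and it was chosen for this description after its values were seen, as were the other genes outside the naming rule. Its brightest probe set gave 928, 1204 and 1508 in KO replicates 1, 2 and 3, against 785 in the WT array. All 3 KO signals were above the WT signal, and the lowest of them, that of KO replicate 1, came from the pair that holds the WT array. The log2 difference was 0.59 (SE 0.42), and the other 3 probe sets differed by 0.92 (SE 0.45), 0.53 (SE 0.38) and 0.80 (SE 0.61). The brightest Xbp1 probe set and the one at 0.53 are of a type prone to cross-hybridization. Whether Xbp1 mRNA was spliced was not measured. The Xbp1 probe set at 0.92 had an unadjusted p of 0.0383 by limma without KO replicate 1, with an adjusted p of 0.826.

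Atf4, the central factor of the amino acid branch, gave 2279, 1959.6 and 1709.9 over KO replicates 1, 2 and 3 beside 2377 in the WT array with its brightest probe set. Every KO array was below the WT array with it, at a log2 difference of -0.27 (SE 0.38), while a second probe set, of a type prone to cross-hybridization, gave 873, 644 and 1301 in KO replicates 1, 2 and 3 against 512 in the WT array. These probe sets of Atf4 thus pointed in opposite directions, and the remaining one was at background in all 4 arrays. Atf5, a related factor, gave 763, 452 and 235 in KO replicates 1, 2 and 3, against 579 in the WT array. Its KO signals spread on both sides of the WT signal. Ddit3, the C/EBP-like factor of prolonged ER stress, gave 265, 239.5 and 409 over KO replicates 1, 2 and 3 beside 323 in the WT array, with only KO replicate 3 above the WT array and a log2 difference of -0.12 (SE 0.44).

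The C/EBP partners behaved differently from one another. Cebpb gave 96.7, 112 and 11.3 in KO replicates 1, 2 and 3, against 103 in the WT array, at background in KO replicate 3, so its difference there has no exact size. Of the other KO signals, 1 was below and 1 above the WT signal, and the second Cebpb probe set was at background in KO replicate 3 and in the WT array. Cebpg gave 430.4, 596 and 517 over KO replicates 1, 2 and 3 beside 418 in the WT array, and all 3 of its probe sets were above the WT array in every KO array, with log2 differences of 0.28 to 0.60. Nupr1, a small stress-induced nuclear protein, gave 195, 131 and 423 in KO replicates 1, 2 and 3, against 139.6 in the WT array. KO replicate 3 was the highest for Nupr1, KO replicate 2 was just below the WT array, and the log2 difference was 0.62 (SE 0.67) with this probe set and 0.44 with the other. Over the 16 probe sets of the 7 transcription factor genes, the median log2 difference was 0.26, 0.21 and 0.71 in KO replicates 1, 2 and 3, with 8 probe sets above the WT array in every KO array and 1 below it. Of these 8, 4 belong to Xbp1, 3 to Cebpg and 1 to Atf4. With only the brightest probe set of each of the 7 genes, the medians were 0.040, -0.087 and 0.30, so that of KO replicate 2 turned sign, and 2 genes were above and 1 below the WT array in every KO array.

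Of the feedback regulators, Ppp1r15a, which directs a phosphatase to eIF2 and so ends the translational block, gave 219.5, 114 and 261 over KO replicates 1, 2 and 3 beside 159 in the WT array. The KO arrays again lay on both sides. Trib3, a pseudokinase that restrains Atf4, gave 130.2, 125 and 79.7 in KO replicates 1, 2 and 3, against 116 in the WT array, at background in KO replicate 3, and differed by -0.073 with this probe set and 0.18 with the other, which was also at background in KO replicate 3.

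The ER chaperones were close to the WT array in KO replicate 1 and mostly below it in KO replicates 2 and 3. Over 18 probe sets of 8 genes, 13 were above the WT array in KO replicate 1 but 3 in each of the other KO arrays, with median log2 differences of 0.063, -0.30 and -0.42 for KO replicates 1, 2 and 3. The shares of all probe sets above the WT array were 49.9%, 54.6% and 53.5%. For all probe sets above the lowest 40% by mean they were 51.5%, 50.2% and 47.7%. By the brightest probe set of each of the 8 genes, 7, 2 and 2 were above it in KO replicates 1, 2 and 3. Calr, a soluble lectin chaperone of glycoproteins, gave 4915, 4071 and 3323 over KO replicates 1, 2 and 3 beside 4697 in the WT array. Its membrane-bound counterpart Canx gave 6659, 4208 and 4611 in KO replicates 1, 2 and 3, against 6302 in the WT array. For both genes KO replicate 1 lay above the WT array and the other KO arrays below it, and the log2 differences of the KO means were -0.21 (SE 0.40) for Calr and -0.32 (SE 0.43) for Canx. The other Calr probe sets differed by -0.25 and -0.38. A further Canx probe set gave 1729, 732 and 423 in KO replicates 1, 2 and 3 against 2115 in the WT array, a log2 difference of -1.36 (SE 0.80), which is the most negative of all member probe sets, while the third differed by -0.10. Without KO replicate 1 that Canx difference was -1.90, with an unadjusted p of 0.0214 and an adjusted p of 0.826 by limma. Hsp90b1, the ER member of the Hsp90 family, gave 3776, 2936 and 2697 over KO replicates 1, 2 and 3 beside 3561 in the WT array. Its second probe set ordered the pairs of arrays in the same way, with 3127, 2441 and 2616 in KO replicates 1, 2 and 3 against 3202 in the WT array, although KO replicate 1 was below the WT array there.

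Hspa5, which encodes BiP, a widely used marker of the unfolded protein response, departed from the chaperone medians with its brightest probe set only. It gave 4089, 3776 and 5241 in KO replicates 1, 2 and 3, against 3536 in the WT array with the brightest probe set. All 3 KO arrays were above the WT array there, by 0.29 (SE 0.39). The other probe set gave 2421, 1446 and 1554 in KO replicates 1, 2 and 3 against 2101 in the WT array, with KO replicates 2 and 3 below it, so the direction of Hspa5 depends on the probe set. Creld2, an ER stress-induced resident protein, gave 348, 346 and 433 over KO replicates 1, 2 and 3 beside 292 in the WT array. It was above the WT array in all KO arrays with its only probe set, by 0.34 (SE 0.37). Sdf2l1, an ER protein that works with co-chaperones, was the reverse case, with 75.0, 66.0 and 75.6 in KO replicates 1, 2 and 3, against 132 in the WT array. KO replicate 3 was at background for Sdf2l1, so that difference is partly bounded. The KO signals above background were both below the WT signal, the log2 difference as measured was -0.76 (SE 0.35), and its unadjusted p of 0.0807 was the lowest among members. The co-chaperone gene Dnajb9 differed by -0.062 (SE 0.36), with the WT signal between those of the KO arrays. Dnajc3, also a co-chaperone gene, differed by -0.27 (SE 0.48) with its brightest probe set. Of its other 4 probe sets, 1 was below the WT array in every KO array, at -0.27 (SE 0.35), 1 was above it in every KO array, at 0.12 (SE 0.35), and 2 differed by -0.17 and -0.56, the last being at background in KO replicate 3.

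Members whose promoter window holds an ERSE had medians like those of the chaperones, which make up most of them. Over the 19 probe sets of these 8 genes, the median log2 difference was 0.072, -0.26 and -0.40 for KO replicates 1, 2 and 3. Over the 14 probe sets of the 7 genes with a C/EBP-ATF match it was 0.18, 0.17 and 0.41. These medians kept their signs with median centring, quantile normalization and both other pseudocounts, and no test was made of the difference between the groups.

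**Figure D3:**
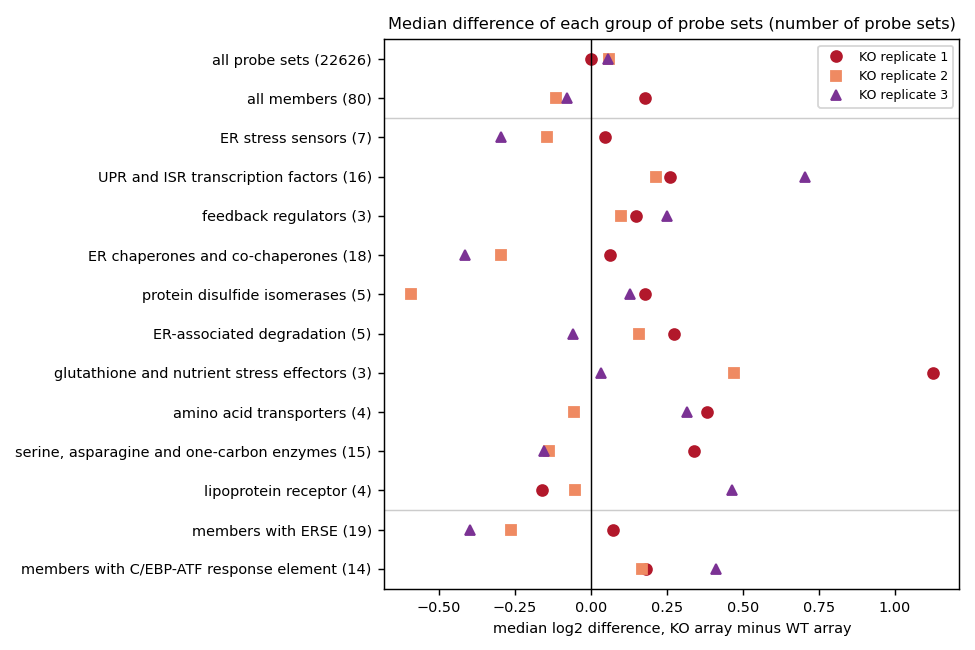
Median log2 difference of each KO array from the WT array over the probe sets of each role, of members with each promoter motif, and of all 22626 probe sets; the number of probe sets is in parentheses. The chaperones have medians of -0.30 and -0.42 in KO replicates 2 and 3 and 0.063 in KO replicate 1.

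Among the disulfide isomerases, Pdia3, which works with the lectin chaperones, gave 3583, 2092 and 1709.5 over KO replicates 1, 2 and 3 beside 3163 in the WT array. Its order over the arrays was that of Calr, with KO replicate 1 and the WT array above KO replicates 2 and 3. Pdia6 gave 1800.4, 2253 and 2597 in KO replicates 1, 2 and 3, against 2373 in the WT array, with only KO replicate 3 above the WT array, while its second probe set was at background in KO replicate 3. Pdia4 gave 159.5, 149.8 and 315 over KO replicates 1, 2 and 3 beside 243 in the WT array, again with KO replicate 3 the highest. In the degradation group, Edem1, which sends misfolded glycoproteins to disposal, gave 185, 211 and 175 in KO replicates 1, 2 and 3, against 123 in the WT array, all KO arrays being above the WT array by 0.57 (SE 0.36). Its second probe set had KO replicate 3 below the WT array. Syvn1, the ubiquitin ligase of ER-associated degradation, gave 381, 283 and 223 over KO replicates 1, 2 and 3 beside 256 in the WT array, and KO replicate 3 was the only KO array below the WT array. Herpud1, a membrane component of the same complex, differed by 0.28 with one probe set and by -0.37 with the other.

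Chac1, which encodes an enzyme that degrades glutathione and is a known target of Atf4, was among the members with the largest ratio of KO replicate 1 to WT. It gave 261, 183 and 158 in KO replicates 1, 2 and 3, against 111 in the WT array. All KO arrays were above the WT array, KO replicate 1 was 2.34 times as bright as it, and the log2 difference of the KO mean was 0.74 (SE 0.42). Sesn2, a leucine-sensing inhibitor of growth signalling, gave 683, 405 and 193 over KO replicates 1, 2 and 3 beside 288 in the WT array. KO replicate 1 was 2.37 times the WT signal but KO replicate 3 was below it, and the difference of the KO mean was 0.38 (SE 0.72). The second Sesn2 probe set gave 353, 284 and 266 in KO replicates 1, 2 and 3, against 260 in the WT array, in the same order of KO arrays.

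Among the transporters, Slc7a5, the large neutral amino acid transporter, gave 1493, 612 and 205 in KO replicates 1, 2 and 3, against 771 in the WT array. Its KO signals spanned an SD of 1.39 on the log2 scale, the widest among all member probe sets, with the WT signal between them. Slc3a2, the heavy chain that Slc7a5 and Slc7a11 need, gave 2958, 1493 and 1877 over KO replicates 1, 2 and 3 beside 2282 in the WT array. KO replicate 1 was again the highest and KO replicates 2 and 3 lay below the WT array. Slc7a11, the cystine and glutamate exchanger, gave 72.3, 62.4 and 115 in KO replicates 1, 2 and 3, against 51.7 in the WT array, above the WT array in all KO arrays by 0.53 (SE 0.44). Slc7a1, a transporter of cationic amino acids, gave 20.5, 73.7 and 86.0 over KO replicates 1, 2 and 3 beside 38.9 in the WT array, at background in KO replicates 1 and 3, so no size is given.

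The synthesis enzymes were mainly higher in KO replicate 1 than in the WT array and not in the other KO arrays. Of their 15 probe sets, 11 were above the WT array in KO replicate 1, while KO replicate 2 had 5 and KO replicate 3 had 6, with median log2 differences of 0.34, -0.14 and -0.15. The shares of all probe sets above it were 49.9%, 54.6% and 53.5%. The 15 probe sets come from 6 genes, and by the brightest of each gene 5, 2 and 1 were above it in KO replicates 1, 2 and 3. Asns, which makes asparagine, gave 1973, 1731 and 1347 in KO replicates 1, 2 and 3, against 1501 in the WT array. Only KO replicate 3 was below the WT array, and the second probe set kept this order with 1084, 723 and 596 in KO replicates 1, 2 and 3 against 638. Phgdh, the first enzyme of serine synthesis, gave 4135, 3580.4 and 3333 over KO replicates 1, 2 and 3 beside 4506 in the WT array, every KO array being below the WT array, at a log2 difference of -0.30 (SE 0.36). All 4 of its probe sets are of a type prone to cross-hybridization, and they differed by -0.41 to 0.056. Psat1, the next enzyme, gave 6494, 4691 and 3892 in KO replicates 1, 2 and 3, against 5159 in the WT array, and Psph, the last, gave 1288, 999 and 781 over KO replicates 1, 2 and 3 beside 1009.5 in the WT array. In both genes KO replicate 1 was the highest of the 4 arrays, and the second Psat1 probe set differed by 0.21.

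The mitochondrial folate enzymes split. Shmt2, which takes a carbon unit from serine, gave 1046, 643 and 549 in KO replicates 1, 2 and 3, against 723 in the WT array with its brightest probe set, where KO replicate 1 was the highest and KO replicates 2 and 3 were below the WT array. One dim Shmt2 probe set gave 116, 166 and 186 in KO replicates 1, 2 and 3 against 79.8 in the WT array, a log2 difference of 0.83 (SE 0.41), which the others did not share. Mthfd2, which oxidizes the resulting folate, gave 524, 546 and 440.3 over KO replicates 1, 2 and 3 beside 377 in the WT array, with all KO arrays above the WT array by 0.40 (SE 0.36), and its second probe set differed by -0.095. Vldlr, a receptor for lipoproteins and Reelin, gave 588, 795 and 1389 in KO replicates 1, 2 and 3, against 590.0 in the WT array. KO replicate 1 was close to the WT array and KO replicate 3 was the highest. The log2 difference was 0.54 (SE 0.56) with this probe set, and -0.045, -0.081 and 0.12 with the others, the last of which was at background in KO replicate 3.

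**Figure D4:**
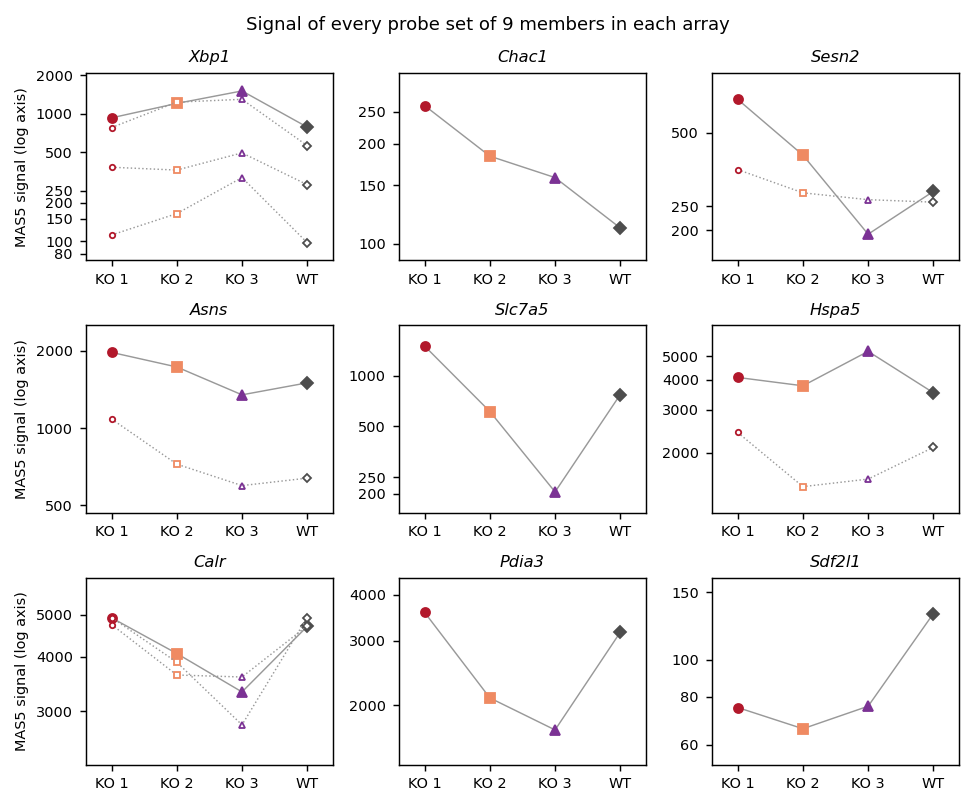
MAS5 signal on a log axis in KO replicates 1, 2 and 3 and in the WT array for all probe sets of 9 members; filled points and solid lines are the brightest probe set, open points and dotted lines the others, and lines only join values of one probe set. Xbp1 and Chac1 are above the WT array in all KO arrays, the brightest probe sets of Calr and Pdia3 are below the WT array in KO replicates 2 and 3 alone, and Slc7a5 lies at 1493, 612 and 205 in KO replicates 1, 2 and 3.

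Agreement between probe sets of a gene limited what could be said of direction. Of 24 members with more than 1 probe set, 13 had probe sets whose differences pointed in opposite directions, as did 9 of the 18 members that had more than 1 probe set above background in all 4 arrays. The same shares were not computed over all genes, so this disagreement cannot be called particular to the members. Every probe set was above the WT array in all KO arrays for 5 genes, namely Xbp1, Cebpg, Chac1, Creld2 and Slc7a11, the last 3 of which have a single probe set. Sdf2l1, with a single probe set, was the 1 gene with every probe set below it. Of all 22626 probe sets taken singly, 25.1% were above and 20.5% below the WT array in every KO array. The share of all genes with every probe set on the same side was not computed. Of the 80 probe sets, 63 were above background in all 4 arrays, and 65 from 35 genes were above the lowest 40% of probe sets by mean. A type prone to cross-hybridization made up 23 of the 80, among them the brightest probe sets of Calr, Canx, Phgdh, Shmt2, Vldlr and Xbp1.

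**Figure D5:**
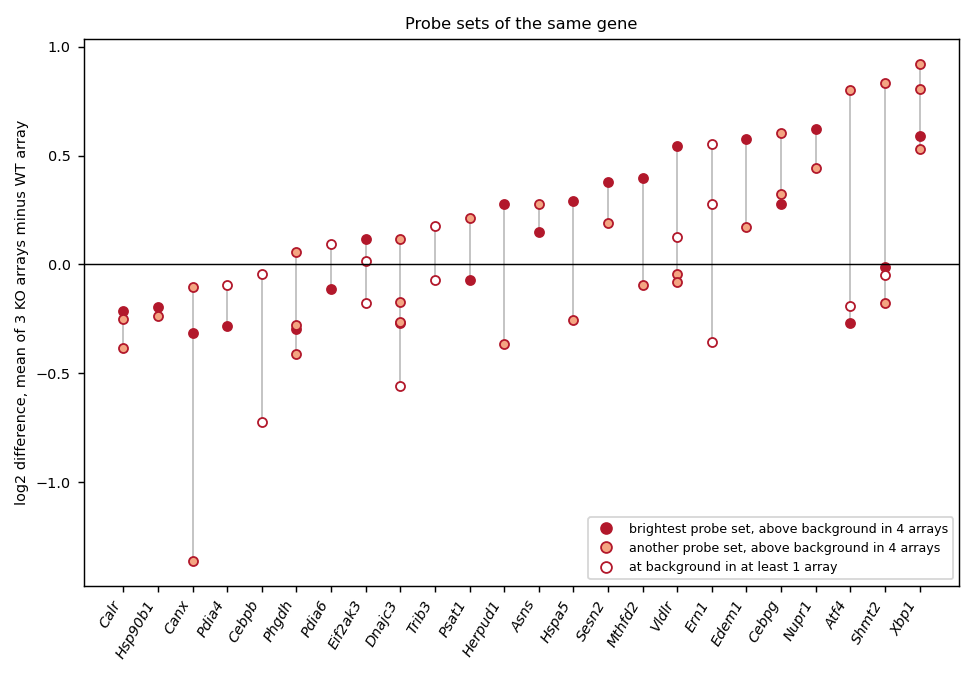
Log2 difference of the mean of the 3 KO arrays from the WT array for each probe set of the 24 members with more than 1; grey lines join probe sets of a gene, dark points are the brightest probe sets, light points the others and open points were at background in at least 1 array. The 4 Xbp1 probe sets lie between 0.53 and 0.92, while those of Hspa5, Herpud1 and Atf4 lie on both sides of 0.

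Other genes of these pathways gave no call either. Of 51 further genes of ER folding, translocation and degradation, by their brightest probe set, 0 passed the limma test and 0 had an unadjusted p under 0.05, while 6 were above and 12 below the WT array in every KO array (median log2 difference -0.079, beside 0.036 over all genes). Over the brightest probe sets of all 12393 genes, 25.2% were above and 18.6% below it in every KO array, and the counts of this list and of both lists that follow stand beside these shares. Those with the largest moderated t were Wfs1, an ER membrane protein, at -0.60, Txndc11, a thioredoxin-domain protein, at 0.47, and Sel1l2, which was at background throughout. Of 46 further genes of the integrated stress response, 0 passed and 0 had an unadjusted p under 0.05, with 10 above and 8 below in every KO array and a median of -0.10. Its leading genes were Fgf21, at background in 3 arrays, the translation inhibitor gene Eif4ebp1 at 0.66 and Gadd45a at 0.63. Of 28 further genes of amino acid transport and synthesis, 0 passed and 0 had an unadjusted p under 0.05, with 6 above and 9 below and a median of -0.15. Tyms led this list, at background in KO replicate 3, before the glutamine transporter gene Slc38a1 at 0.73 and Gpt, at background in KO replicate 3. The median log2 difference of KO replicate 1 alone from the WT array was 0.018, 0.038 and 0.027 in these lists, in the order given, beside 0.010 over the brightest probe sets of all genes and 0.21 over those of the members.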

How the data were processed

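Biotin-labelled cRNA from 6 µg of total RNA was hybridized per sample to an Affymetrix array, per the labels' protocols. The deposited values are linear intensities, 1 per probe set and array, made with MAS5 per the submitters' processing notes. Its version is not given in the sources used here. The arrays as deposited share a mean of about 500 after trimming 2% from each tail (499.9 to 500.0), so no further scaling was applied. Symbols came from the platform table, updated by gene identifier through a RefSeq table of GRCm38.p6.

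Signals became log2(signal + 14.4), the pseudocount being 0.1 times the median of all values. This scale understates changes of dim probe sets. All 22626 probe sets that are not controls were tested without a filter (limma 3.58.1, R 4.3.3; lmFit, eBayes, two-sided, Benjamini-Hochberg, threshold 0.05), because the members are defined by probe set. Since WT cells had 1 array, the KO arrays alone gave the residual variance (2 residual and 3.25 prior degrees of freedom), so the WT array was assumed to vary like them, and the number of arrays limits every value. The fit was tested on simulated data, where its differences were unbiased but most changed genes were not called, even those with very large changes. A count of 0 calls therefore does not show that members did not differ.

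Members, lists and tests were chosen with earlier results of these data known. The naming rule took, by brightest probe set, members with any probe set at an unadjusted p under 0.05, or with a WT signal 1 log2 unit or more away from all KO signals, the 6 with the largest SD over KO arrays, the 8 brightest and the brightest of each role, plus up to 3 other genes per pathway list by moderated t. The remaining members were named after their values were seen. Alternatives covered pseudocount, scaling, filter, choice of probe set, eBayes settings, the pair of arrays as a block and each KO array left out.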

Additional observations from a re-analysis of the deposited data

How the results depend on the processing

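No probe set and no member passed the adjusted threshold under any of 13 alternatives (lowest adjusted p of a member 0.826), and the number of arrays limits all of them. Over all probe sets, the count at an unadjusted p under 0.05 was 622 and was 324 after a filter on the lowest 40%, 168 and 329 with 1 value per gene, 344 without KO replicate 2 and 1347 without KO replicate 1. Among members it was 0, but 1 (Xbp1) with an intensity trend, and 0 to 2 when a KO array was left out, the 2 being Xbp1 and Canx without KO replicate 1. The members' median log2 difference of -0.044 became 0.18 when the pairs entered as a block, which compares only KO replicate 1 with the WT array, and -0.039 to 0.056 when a KO array was left out. Member probe sets with every KO array below the WT array numbered 11, and 13 to 31 when 1 was left out (19 without KO replicate 3, 31 without KO replicate 1), and those above it 20, and 24 to 29. Fewer arrays make both counts easier to meet. These leave-out counts were added after seeing the data.

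Of 498 values of single members, 454 kept their sign and none of the 498 passed. With the pair as a block, 17 turned, to 0.39 for Atf5, 0.12 for Atf6, 0.065 for Calr, 0.079 for Canx, 0.061 for Dnajb9, 0.22 for Dnajc3, 0.069 for Ern1, 0.084 for Hsp90b1, 0.18 for Pdia3, 0.33 for Psat1, 0.35 for Psph, 0.52 for Shmt2, 0.37 for Slc3a2, -0.61 for Slc7a1 (as measured, with KO replicate 1 at background), 0.94 for Slc7a5, 0.15 for Trib3 and -0.0038 for Vldlr. With the mean of all probe sets of a gene, Atf4 became 0.11, Eif2ak3 -0.016, Ern1 0.16, Herpud1 -0.045, Psat1 0.071, Shmt2 0.15 and Trib3 0.051. Psph and Shmt2 became 0.011 and 0.011 with median centring, and 0.020 and 0.041 with quantile normalization. With 1 KO array left out, the sign turned for 15 members, with ranges of -0.80 to 0.021 for Atf5, -1.14 to 0.013 for Cebpb, -0.34 to 0.027 for Ddit3, -0.12 to 0.014 for Dnajb9, -0.13 to 0.48 for Eif2ak3, -0.24 to 0.027 for Pdia6, -0.00055 to 0.55 for Ppp1r15a, -0.27 to 0.097 for Psat1, -0.19 to 0.17 for Psph, -0.037 to 0.84 for Sesn2, -0.28 to 0.18 for Shmt2, -0.44 to 0.046 for Slc3a2, -1.08 to 0.31 for Slc7a5, -0.024 to 0.34 for Syvn1 and -0.19 to 0.13 for Trib3. The cause was not tested. No paired analysis was possible because the labels give the WT array no replicate number that it shares with a KO array. The block above is the pair of arrays seen in their 18S signals. The titles divide the arrays likewise, with numbers 37 and 38 for KO replicates 2 and 3 and none for the others. What these numbers stand for is not given in the labels used here, so they make no pairing of KO with WT samples.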
